A study of Homo sapiens with 6 samples.

Results

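This comparison sets the 2 RNA-seq libraries labelled sh1 against the 2 labelled NC, 4 of the 6 libraries of the series. The members were taken by their titles (sh1-1, sh1-2, NC-1 and NC-2), joined on gene ID, and kept where an ID reached 1 FPKM in at least 2 of these 4 libraries. FPKM counts fragments per kilobase of a gene and corrects them for how deeply the library was sequenced. All 6 libraries are labelled as A549, a long-established line of human lung adenocarcinoma cells, with lung cancer as the tissue, and the design text sets a knockdown group against an NC group. The other 2 libraries, labelled sh4, enter here for the estimate of spread and for side-by-side values. The labels give no treatment, time point, vector or clone, do not spell out NC or sh1, and do not say whether libraries of a group came from separate cultures, so p-values measure the spread between these libraries, which may be technical. Reading sh1 as a short hairpin RNA against the gene that the series title writes as DSTY is an assumption.

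A short hairpin RNA is transcribed in the cell, cut by the enzyme Dicer to a short duplex, and loaded into Argonaute, which uses the retained strand to find matching transcripts and lower them. Transcripts downstream of the target change as well, and a strand can also act on transcripts that match it only over a short stretch near its start. The present comparison measures the whole difference between the sh1 and NC libraries, which need not come by these routes.

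The IDs stand against the species label. All 54532 begin with ENSMUSG, Ensembl's prefix for mouse genes, while the labels say human and the submitters' processing notes name a human genome build. The files do not pair IDs with gene names, and 0 IDs matched the gene name table or the RefSeq gene table used here. Both tables are for human genes, so IDs with the mouse prefix could not match them. The targeted gene, the A549 identity, markers of other cell types and pathway lists were therefore not analysed here, and genes are described by ID, level, recovered length and change. Below, sh1 and NC mean the libraries labelled so.

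Whole reads recovered from the FPKM values came to 15423886 and 14999786 in NC, and to 17007929 and 18011798 in sh1. One read in a gene of 1000 bp was worth 0.0568 to 0.0652 FPKM in these 4 libraries. Of 24692 IDs above 0 in any of them, 16733 were above 0 in all 4. The test covered 12365 IDs, of which 10824 reached 1 FPKM in all 4 libraries, 504 did so in both sh1 libraries and neither NC library, and 361 in both NC libraries and neither sh1 library.

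About as many IDs rose as fell in sh1. By limma with Benjamini-Hochberg adjustment (adjusted p below 0.05, n = 2 against 2), 4070 IDs were higher and 4186 lower, which is 32.9% and 33.9% of those tested and 66.8% together. At an unadjusted p below 0.05 there were 8578. In bulk RNA, fewer cells of a kind and less RNA per cell cannot be told apart. The libraries of the groups did not overlap for 82.9% of all tested IDs, including 1996 that were not called, so separation of 2 libraries from 2 is common here and carries little by itself. The balance of directions rests on the scaling. The deposited scaling (median-of-ratios size factors) centres the typical ratio between libraries, so near-even directions are largely built in. Of the calls, 49.3% were higher as deposited. With libraries rescaled to an equal FPKM sum over IDs of 200 bp or more, a setting added after seeing the data, 3049 IDs were higher and 5448 lower (35.9% higher), and the median log2 fold change of all tested IDs moved from -0.01 to -0.15.

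Most calls were under 1 log2 unit on the scale used, and 15.3% reached it. Fold changes are differences in log2(FPKM + 1), which understates the change of low genes. The median absolute log2 fold change was 0.52 among calls and 0.11 among the 4109 IDs without a call, and 3963 calls, or 48.0%, were under 0.5. The quartiles over all tested IDs were -0.36 and 0.36. The distribution had a longer upper tail, with 5th and 95th percentiles of -0.97 and 1.10. The smallest change called was 0.10, and the largest not called was 2.25.

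Changes of at least 1 log2 unit were called for 723 higher IDs (5.85% of those tested) and 543 lower IDs (4.39%), or 10.2% together, all without overlap of the libraries. Higher IDs were in excess, and their ratio to lower IDs grew with size. At 2 log2 units or more there were 126 higher and 64 lower, at 3 or more 32 and 14, and at 4 or more 8 and 2. These larger sizes were counted with the deposited scaling only. At 1 log2 unit the excess depended on the scaling. It was kept with total recovered reads (645 higher and 624 lower), and turned with the same FPKM sum for all IDs (630 and 642) and, more so, for IDs of 200 bp or more (531 and 756). Of the 1266 IDs changed by at least 1 log2 unit, 967 (573 higher and 394 lower) held that size in each of the 4 pairs of an sh1 with an NC library. The smallest difference that any pair showed among the 1266 was 0.19.

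**Figure D1:**
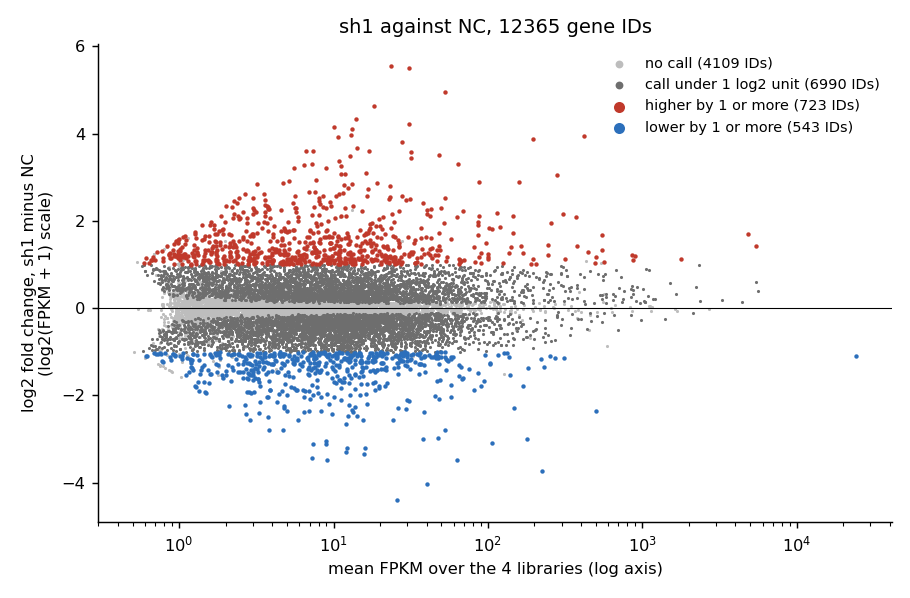
Log2 fold change of sh1 minus NC (vertical axis, log2(FPKM + 1) scale) against the mean FPKM over the 4 libraries (horizontal log axis), 1 point for each of the 12365 IDs tested. Red points are the 723 IDs higher and blue points the 543 IDs lower by at least 1 log2 unit, dark grey points the smaller calls and light grey points the 4109 IDs without a call; the point at the far right is an ID of 57 bp.

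These larger changes moved a sizeable part of the reads. The 723 higher IDs took 3.82% and 3.89% of the recovered reads in the NC libraries and 10.8% and 10.9% in the sh1 libraries. The 543 lower IDs took 6.12% and 6.13% in NC and 2.03% in each sh1 library. In sh4 the same higher IDs held 6.95% and 6.96%, and the lower IDs 3.29% and 3.31%, between NC and sh1 in both cases. The IDs were chosen on NC and sh1, so these shares are a description. Reads were also more concentrated in sh1, where the 10 IDs with the most reads held 7.97% and 8.08% of all reads, against 5.87% and 5.98% in NC.

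The ID with the highest fold change, ENSMUSG00000032532 (recovered length 1305 bp), was nearly silent outside sh1. It had 0 and 1 reads in the NC libraries (0 and 0.050 FPKM) and 1010 and 1111 reads in the sh1 libraries (46.3 and 48.3 FPKM). The sh4 libraries held 0 and 1 reads. Both sh1 libraries thus stood far above the other 4. The log2 fold change against NC was 5.56 (SE 0.27, limma adjusted p = 2.07e-09, n = 2 against 2), and against sh4 5.56 (SE 0.27, adjusted p = 3.66e-09). A call against sh4 is not rare in this fit, which made one for 55.9% of the tested IDs (27.2% higher and 28.7% lower in sh1). The ratio of summed reads to NC, with the libraries' scaling, was 1923, with an exact 95% binomial interval from 345 to 75998 that covers counting error only. In sh1 this ID ranked 1025th by mean FPKM among all IDs.

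ENSMUSG00000040026 (2606 bp) rose from 0.49 and 0.25 FPKM in NC, which were 20 and 10 reads, to 62.4 and 59.7 FPKM in sh1. The sh4 libraries were at 10.1 and 8.87 FPKM, above NC and below sh1 with no overlap. Its log2 fold change was 5.51 against NC (SE 0.10, limma adjusted p = 4.2e-13) and 2.57 against sh4 (SE 0.10, adjusted p = 6.31e-10). The mean in NC was 0.37 ± 0.17 FPKM (SD, n = 2) and in sh1 61.0 ± 1.9.

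The largest fall was that of ENSMUSG00000028364 (7772 bp), from 49.3 and 50.5 FPKM in NC to 1.26 and 1.55 in sh1. The sh1 values still rest on 164 and 212 reads. In sh4 it stood at 8.72 and 9.30 FPKM, again between the other groups. The log2 fold change was -4.40 against NC (SE 0.07, limma adjusted p = 8.73e-14) and -2.06 against sh4 (SE 0.07, adjusted p = 1.08e-10). The mean in NC was 35.5 times that in sh1.

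ENSMUSG00000037411 (3876 bp) fell from 76.5 and 78.1 FPKM in NC to 3.98 and 3.63 in sh1, a 20.3-fold difference of the means. The sh4 libraries held 9.67 and 9.80 FPKM, so the groups stood in the order NC, sh4, sh1 without overlap. Its log2 fold change was -4.03 against NC (SE 0.06, limma adjusted p = 8.73e-14) and -1.16 against sh4 (SE 0.06, adjusted p = 7.04e-09). With a pseudocount of 0.1 the 4 fold changes against NC were 8.60, 7.08, -5.06 and -4.31, in the order given here. From recovered reads, voom gave 10.1, 7.39, -5.15 and -4.34. The first of these depends most on the added constant.

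**Figure D2:**
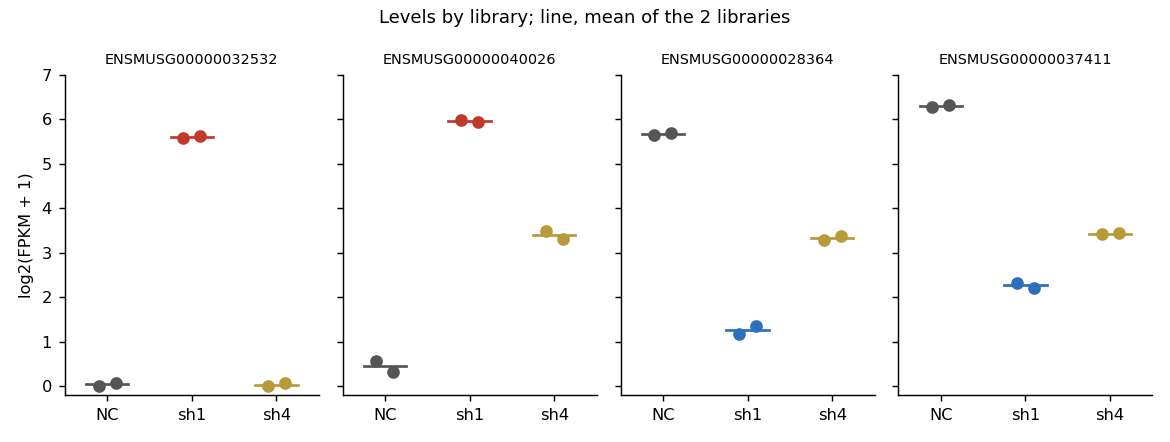
Level of the 2 IDs with the highest and the 2 with the lowest log2 fold change (mean of at least 5 FPKM), as log2(FPKM + 1) in each library; points are libraries and lines the mean of the 2. In each panel the sh1 libraries lie apart from NC, and the sh4 libraries lie at the NC level for ENSMUSG00000032532 and between NC and sh1 for the other IDs.

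Near-silence in one group was rare. There were 19 IDs with no more than 3 reads in either NC library but at least 30 in each sh1 library, 6 of them at 0 in both NC libraries. Their mean in sh1 ranged from 0.55 to 47.3 FPKM with a median of 1.53, the highest being ENSMUSG00000032532. Of the 19, 14 passed the filter. In sh4, 5 of the 19 also had at most 3 reads in both libraries, 3 had 30 or more in both, and 11 lay between. The reverse pattern was found for 8 IDs, with means in NC from 0.23 to 2.91 FPKM. In sh4, 1 of these 8 had at most 3 reads in both libraries and 2 had 30 or more in both. These IDs were selected by their reads in NC and sh1, so no test is given.

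Abundant transcripts leaned towards higher levels in sh1. Of 419 IDs averaging at least 100 FPKM, sh1 had more of 215 (51.3%) and less of 119 (28.4%), with a median log2 fold change of 0.15 against -0.01 over all IDs tested. At 1 log2 unit, 39 of them were higher and 20 lower. In the next 2 classes lower calls were more frequent, with 851 higher and 979 lower of 2343 IDs from 20 to under 100 FPKM, and 1636 higher and 1899 lower of 4919 IDs from 5 to under 20 FPKM. Of the 4684 IDs under 5 FPKM, 1368 were higher and 1189 lower. The median of the most abundant class stayed above that of all tested IDs under every setting run, by 0.13 to 0.17, while its own sign turned (-0.02) when libraries were rescaled over IDs of 200 bp or more.

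Change also varied with the recovered length of the gene. IDs of 1000 to under 2000 bp were more often higher (534 of 1414, 37.8%) than lower (399, 28.2%). IDs of 8000 bp or more were more often lower (819 of 1880, 43.6%) than higher (542, 28.8%). The median log2 fold change was 0.08 in the first class and -0.09 in the second, a difference of -0.17. In the classes between, 2000 to under 4000 bp and 4000 to under 8000 bp, the medians were 0.03 and -0.03. In the shorter classes the median was 0.06 at 200 to under 1000 bp and -0.16 under 200 bp. The class of 1000 to under 2000 bp thus had the highest median over all tested IDs. With a mean FPKM of at least 5, the class of 200 to under 1000 bp was higher (0.10 against 0.06). The medians of the classes from 4000 bp upwards were negative in each setting run. Those of the classes from 200 to under 4000 bp turned negative when libraries were rescaled over IDs of 200 bp or more. With the same FPKM sum for all IDs, 200 to under 1000 bp (-0.004) and 2000 to under 4000 bp (-0.036) were negative too. With total recovered reads the class of 2000 to under 4000 bp was at -0.022. The difference between the longest class and that of 1000 to under 2000 bp lay between -0.14 and -0.20 in each setting run.

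**Figure D3:**
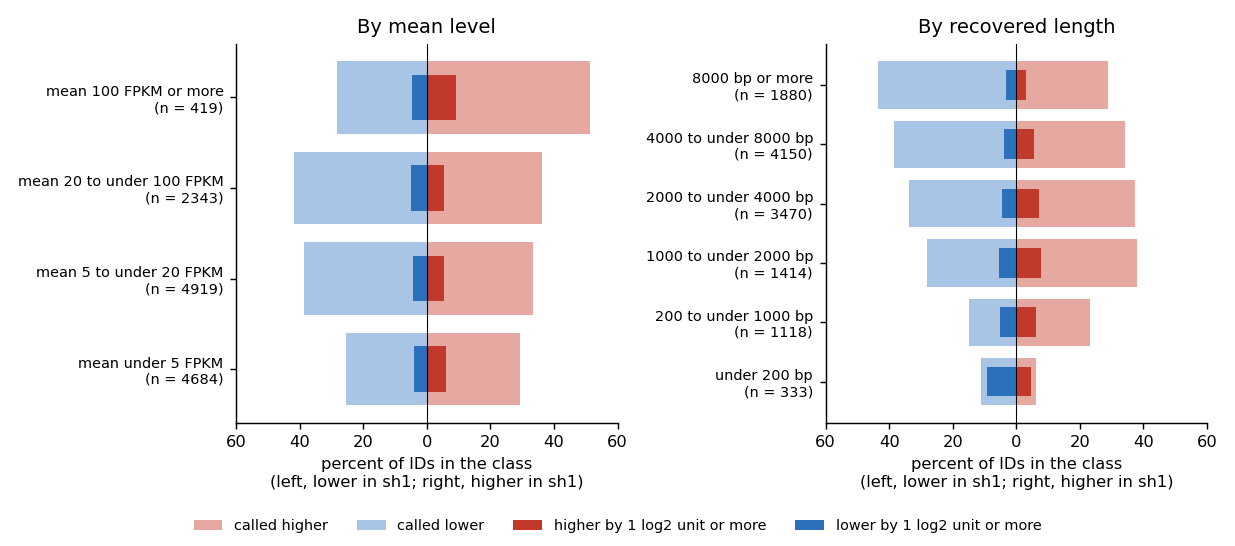
Percent of tested IDs called higher (right) or lower (left) in sh1, by mean level (left panel) and by recovered length (right panel); pale bars are all calls and dark bars those of at least 1 log2 unit, with the number of IDs beside each class. Higher calls lead at 100 FPKM or more (51.3% against 28.4%) and lower calls at 8000 bp or more (43.6% against 28.8%).

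The fall in the median from 1000 bp upwards was present within classes of level. For IDs under 5 FPKM the median went from 0.13 at 1000 to under 2000 bp to -0.06 at 8000 bp or more. From 5 to under 20 FPKM it went from 0.04 to -0.12, and from 20 to under 100 FPKM from 0.00 to -0.14. At 100 FPKM or more, where the longest class held too few IDs, it went from 0.26 to 0.05 at 4000 to under 8000 bp. At 200 to under 1000 bp the medians were 0.01, 0.10, 0.10 and 0.13 in the same order of level. They were above those at 1000 to under 2000 bp from 5 to under 100 FPKM, and below them in the lowest and highest classes of level. Set library by library, the longest class minus the class of 1000 to under 2000 bp was -0.15, -0.13, -0.20 and -0.21 in the 4 pairs of an sh1 with an NC library. Between replicates (replicate 2 minus replicate 1) it was 0.06 for NC and -0.01 for sh1, smaller in size than in any of the 4 pairs. In the pairs of sh4 with NC, which use the same NC libraries, it ranged from -0.33 to -0.14. The shorter classes differed between sh4 and sh1. Minus the median of all tested IDs, the class of 200 to under 1000 bp lay at -0.10 to -0.08 in the sh4 pairs and 0.06 to 0.07 in the sh1 pairs. Under 200 bp the values were -0.58 to -0.45 and -0.18 to -0.03. The labels give no measure of RNA integrity or fragment size, and their part in the length pattern was not tested.

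**Figure D4:**
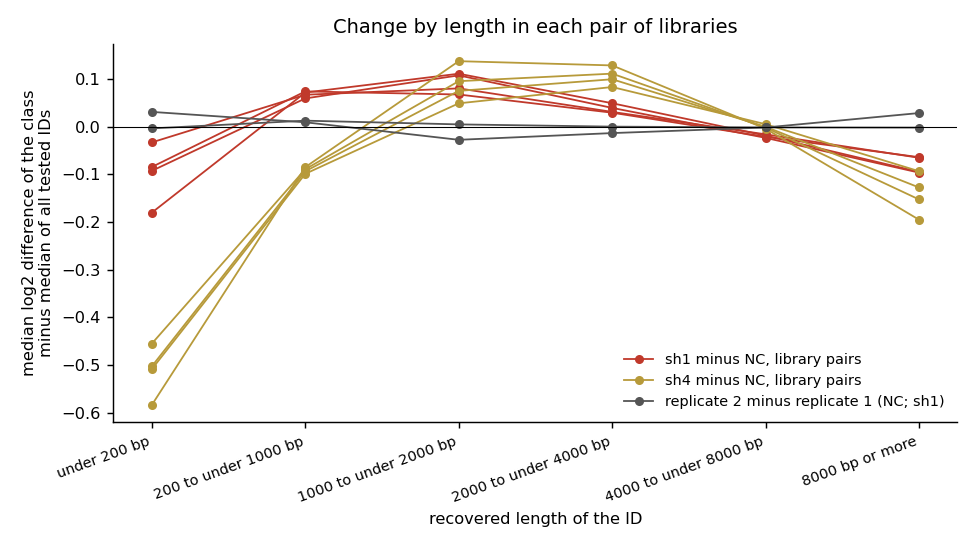
Median difference in log2(FPKM + 1) of each length class minus the median of all tested IDs (vertical axis), for each pair of libraries (lines). The sh1 minus NC pairs (red) fall from 0.07 to 0.11 at 1000 to under 2000 bp to between -0.10 and -0.06 at 8000 bp or more; replicate pairs (dark grey) stay within 0.03 of 0 from 200 bp upwards.

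Short IDs rested on few reads. The 333 tested IDs under 200 bp held a median of 3.5 reads per library. Length and reads can be recovered too low by the same factor, so short length and few reads are partly tied here. The root-mean-square difference between single libraries was 0.94 within NC, 0.88 within sh1 and 1.09 over the 4 pairs of an sh1 with an NC library. Only 21 were called higher and 37 lower. A single ID of 57 bp carried most of their signal, with 26594 and 39986 FPKM in NC and 14679 and 15920 FPKM in sh1. The 2 NC libraries thus differed from each other by more than the sh1 libraries, and no NC value reached down to sh1. Its log2 fold change was -1.09 (SE 0.24, limma adjusted p = 0.0245). The call was lost in the fit of the NC and sh1 libraries alone (adjusted p = 0.0753), without sh1 replicate 1 (0.0781) and without sh1 replicate 2 (0.0644). Over the settings that kept all 4 libraries the limma adjusted p ranged from 0.00607 to 0.0753. Leaving out an NC library takes the difference between the 2 NC libraries out of the spread, so those p-values are not given. The fold change was -1.39 without NC replicate 1 and -0.80 without NC replicate 2, so its size rests on the NC library used. Alone it accounted for 8.03% and 11.6% of all FPKM in the NC libraries and for 4.13% and 4.43% in sh1, which bears on any scaling to the FPKM sum.

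Longer IDs differed more between groups than within them. At 8000 bp or more the root-mean-square difference was 0.57 over the pairs of an sh1 with an NC library, against 0.09 between the NC and 0.07 between the sh1 libraries. At 1000 to under 2000 bp it was 0.82 against 0.21 and 0.18. For the 426 IDs with a mean under 10 reads per library it was 1.02 against 0.84 and 0.83. The share of IDs called followed the reads behind them. It was 15% of those 426 IDs, 47.6% of 1707 with 10 to under 100, 67.8% of 6287 with 100 to under 1000, and 79% of 3945 with 1000 or more. The share changed by at least 1 log2 unit did not follow them, at 12.4%, 11.3%, 10.4% and 9.28% in the same order.

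**Figure D5:**
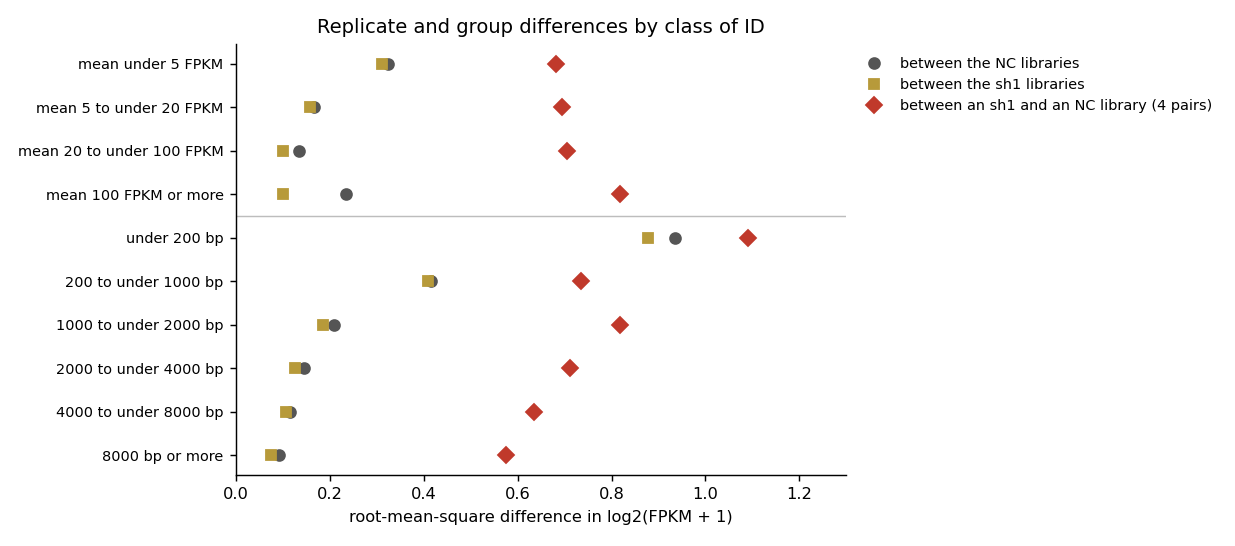
Root-mean-square difference in log2(FPKM + 1) between the NC libraries (circles), between the sh1 libraries (squares) and over the 4 pairs of an sh1 with an NC library (diamonds), by class of mean level (upper rows) and of recovered length (lower rows). The diamonds lie to the right of both replicate values in each class, closest under 200 bp, where the values are 0.94, 0.88 and 1.09.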

How the data were processed

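The files hold 1 FPKM value per gene ID and library, computed by the authors. Per the submitters' processing notes, HISAT2 2.0.5 and the build hg18 were used. No counter, annotation or filter is named there (not given in the sources used here). Whole reads and gene lengths were recovered by a search for denominators and lengths that give whole numbers, and rebuilt the values of 25747 of 25747 IDs above 0 with an error of at most 1e-06 FPKM plus 1e-07 of the value. With few reads a recovered length can be too short by a common factor, and the recovered reads are then too few by the same factor. The denominators followed median-of-ratios size factors to within 8.53e-10%, so the deposited FPKM values carry a between-library scaling.

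Values were tested as log2(FPKM + 1) in limma 3.58.1 (R 4.3.3), in 1 fit of the 3 groups over 6 libraries (3 residual degrees of freedom), with a robust variance trend on mean log2 reads and Benjamini-Hochberg adjustment over all 12365 IDs. The fit was tested on simulated data with few changed IDs, the same added spread for every ID and equal effects in sh1 and sh4. The present libraries differ from that, so the simulation gives no error rate for them. The replicate numbers carry no stated pairing, so no block was used. The rule for named genes asked for symbols, and without them allowed at most 2 IDs that rose and 2 that fell. By it, the 2 highest and 2 lowest fold changes among calls with a mean of at least 5 FPKM and no overlap are printed. Gene lists had been written (46 lists with 879 symbols, 11 of them of cell type markers), but without gene names their symbols could not be mapped to IDs. The members and lists were chosen with earlier results of these data known. Replicates differed by more than counting noise (chi-square per ID 4.32 in NC and 2.44 in sh1). Alternatives covered scaling, filter, pseudocount, variance model and each NC and sh1 library left out.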

Additional observations from a re-analysis of the deposited data

Results flagged for a closer look

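All 4 printed IDs had an effect against NC that differed between sh1 and sh4, by limma's direct test of sh1 against sh4 in the same fit (n = 2 against 2, adjusted over 12365 IDs). They were chosen for the size of their change in sh1, and both effects use the same NC libraries. The log2 difference of sh1 minus sh4 was 5.56 for ENSMUSG00000032532 and 2.57 for ENSMUSG00000040026. It was -2.06 for ENSMUSG00000028364 and -1.16 for ENSMUSG00000037411. Both sh1 libraries lay on the same side of both sh4 libraries for each ID. The share of all tested IDs so separated was not computed for sh1 and sh4, and was 82.9% for sh1 and NC. The direct test called 55.9% of all tested IDs, so a call carries little by itself.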

How the results depend on the processing

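The balance of higher and lower IDs moved with the scaling, as did the sign of the class medians under 5 FPKM, at 100 FPKM or more and from 200 to under 4000 bp, while the other class medians kept their sign. Higher calls, 4070 as reported, were 2693 with a mean FPKM of at least 5, where fewer IDs (7681) were tested. Changes of at least 1 log2 unit, 723 higher and 543 lower, came to 442 and 348 there. They came to 1106 and 867 when 0.1 was added in place of 1, and voom, run on reads, gave 1156 and 923. Both of these settings add a smaller constant. Leaving out 1 library gave 3537 to 3781 higher and 3676 to 3848 lower calls, and 702 to 753 and 529 to 546 of at least 1 log2 unit. Only NC and sh1 libraries were left out in turn, and no setting left out a single sh4 library. A lone library is then assumed to vary like the other groups. The 4 printed IDs kept their direction and calls against NC in every setting run, and against sh4 in every setting that held sh4. The replicate block gave 4149 higher and 4272 lower calls. The labels state no pairing, and between libraries sharing a number the deviations from group means had a correlation of -0.02 (sh1 with NC), -0.02 (sh1 with sh4) and 0.13 (sh4 with NC). The planned edgeR test was not run, because the deposited unit is FPKM, and gene list results could not be computed without symbols. Depth limits IDs under 10 reads, of which 15% were called.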
